A study of Mus musculus with 8 samples.

Results

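Cadherins are calcium-dependent adhesion receptors that bind the same kind of molecule on a neighbouring cell and, in the classical types, anchor the junction to actin through catenins. The 9 genes described here were taken by symbol from a table of 22322 genes: the type I classical cadherins Cdh1, Cdh2, Cdh3 and Cdh4, the type II classical cadherins Cdh6 and Cdh11, the membrane-anchored Cdh13, which lacks a cytoplasmic tail, and Cdh16 and Cdh17, which have long ectodomains and short tails. All 9 had a row in the table and all 9 passed the filter on low counts. In kidney, E-cadherin (Cdh1) is typical of distal tubule epithelium, N-cadherin (Cdh2) and K-cadherin (Cdh6) are typical of the proximal tubule and its precursors, and Ksp-cadherin (Cdh16) is restricted to tubular epithelium. Loss of Cdh1 with gain of Cdh2, the cadherin switch, is a classic feature of epithelial to mesenchymal transition, and Cdh11 is typical of mesenchymal cells and activated fibroblasts.

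RNA was sequenced from 8 samples labelled as primary renal fibroblasts from mouse kidney. Of these, 4 carry the genotype label WT and received an adenovirus encoding GFP (Ad-GFP), and 4 carry the label suv39h1 knockdown and received an adenovirus encoding Cre recombinase (Ad-Cre). All 8 were exposed to TGF-β at 5 ng/ml for 48 hours, so both groups are stimulated and no resting baseline enters the comparison. Suv39h1 is a histone H3 lysine 9 methyltransferase that marks heterochromatin, and the labels do not name the allele on which Cre acts. Nothing in the labels ties the replicates to cultures or animals of their own, so p-values are set against the variation among these samples alone, and that variation may be technical.

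Library totals ran from 15879244 to 17930632 counts in Ad-GFP and from 18006938 to 23940043 in Ad-Cre, where every library was the deeper. Suv39h1 itself was at 27.8 to 29.6 CPM in Ad-GFP and 21.6 to 25.3 CPM in Ad-Cre, where CPM are counts scaled to a common library total. Its fitted level in Ad-Cre was 79.6% of Ad-GFP (adjusted p = 3.293e-05), so Suv39h1 mRNA was reduced but present in every Ad-Cre library. The fibroblast label was checked against markers. Epithelial transcripts were plentiful, with Krt8 at 1503 ± 37 CPM and Cldn4 at 1140 ± 29 CPM in Ad-GFP (SD, n = 4), and the 15 general epithelial markers summed to 5743 to 5953 CPM in Ad-GFP and 5265 to 5275 CPM in Ad-Cre. The 10 fibroblast markers summed to 773.4 to 819.2 CPM in Ad-GFP and 501.1 to 576.2 CPM in Ad-Cre, and Vim and Col1a1 led that list. The other fibroblast markers, named after their values were seen, averaged 193.8 CPM (Col1a2), 54.4 (Col3a1), 40.4 (Postn), 27.9 (Pdgfrb), 7.19 (Thy1), 5.14 (Pdgfra), 4.19 (Dcn) and 0.173 CPM (Lum) in Ad-GFP. Fibroblast and epithelial markers were thus both present in libraries labelled as fibroblasts. In such bulk samples, fewer cells of a type and less RNA per cell cannot be told apart.

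Of the 9 cadherins, 5 rose and 2 fell in Ad-Cre by edgeR's quasi-likelihood test at an adjusted p under 0.05, and 2 did not pass it. The rises were Cdh6 (126.5% of Ad-GFP), Cdh16 (122.6%), Cdh3 (118.3%), Cdh2 (115.3%) and Cdh11 (106.2%), and the falls were Cdh13 (72.2%) and Cdh4 (87.1%). The most abundant member, Cdh1, was at 96.7% of Ad-GFP and Cdh17 at 108.2%, neither of them called. All of these changes were below 1.5-fold. Calls were common in this comparison: 40.3% of the 13337 genes tested were called, 19.8% higher and 20.5% lower in Ad-Cre. CPM did not overlap between the groups for 7 of the 9 members, against 35.4% of all tested genes. The 9 genes were chosen with earlier results of these data known, so the counts of members were not tested against these shares. Counts of called genes in the lists below stand beside the same shares and were not tested against them either. The median log2 fold change of the 9 was 0.11, beside 0.0041 for all tested genes. The plot of CPM by library shows how small these shifts are beside the levels themselves.

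**Figure D1:**
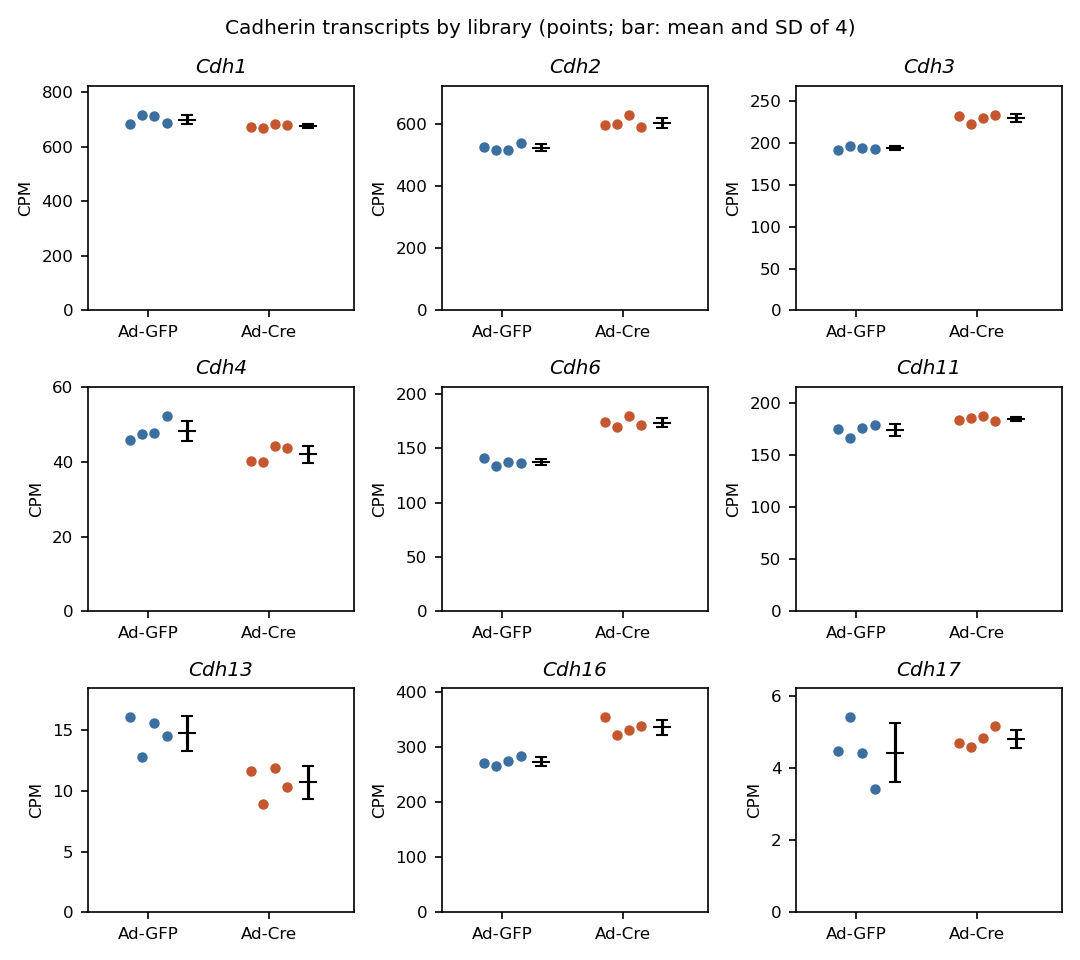
CPM of each cadherin in every library (y axis from 0, in CPM) for the 4 Ad-GFP and 4 Ad-Cre libraries, as points, with the group mean and SD as a bar. The groups are apart for 7 genes, and they overlap for Cdh1 (683.2 to 715.9 against 669.1 to 684.0 CPM) and Cdh17.

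Of the 9 genes, Cdh6 had a promoter entry in the RefSeq sequence table used here (GRCm38.p6). Cdh6 is shown because no other member had an entry there. Some repressors described below act on cadherin genes through E-boxes (the core letters CANNTG). The forms planned for this search were CAGGTG and CACCTG, and the wider core is marked here. The 250 bases before the Cdh6 start, on the minus strand, carry 1 such wider core, CACTTG, in capitals, from 15 to 10 bases upstream of the start. Repressor binding to these bases was not tested.
Cdh6, chr15:13173676-13173925: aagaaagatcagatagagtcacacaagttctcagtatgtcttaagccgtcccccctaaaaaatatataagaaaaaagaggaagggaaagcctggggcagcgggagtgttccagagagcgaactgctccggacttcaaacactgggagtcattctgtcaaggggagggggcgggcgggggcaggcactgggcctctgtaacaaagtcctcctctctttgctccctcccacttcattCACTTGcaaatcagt
A CANNTG core, which reads the same on both strands, occurs in 66.2% of the 32851 upstream stretches of that length in the table. The SNAIL and ZEB form CAGGTG, or CACCTG on the other strand, occurs in 17.2% of them, and its letters are not in the Cdh6 window. The window holds 6 CpG dinucleotides, the same as the median stretch, at a GC content of 51.2% (median 52.4%).

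Among the type I cadherins, Cdh2 and Cdh3 rose, Cdh4 fell, and Cdh1 had the smallest fitted change of the 9. E-cadherin, encoded by Cdh1, holds epithelial sheets together at the adherens junction. In replicates 1 to 4, Cdh1 had 683.2, 715.9, 713.1 and 686.9 CPM with Ad-GFP and 672.5, 669.1, 684.0 and 680.9 CPM with Ad-Cre, and replicates are given in this order below. The highest Ad-Cre library lay just above the lowest Ad-GFP library, so the groups overlapped. The fitted level was 96.7% of Ad-GFP (95% interval 93.9% to 99.6%), with an adjusted p = 0.0606 in edgeR, and a two-sided exact permutation of its CPM gave p = 0.0571. On the authors' FPKM (fragments scaled to gene length and library size) the groups did not overlap, at 155.8 to 165.0 against 150.1 to 153.4, and limma on log2(FPKM + 1) called Cdh1 lower (adjusted p = 0.033). Most members had a lower log2 fold change on FPKM than on counts, as given in the closing section. The edgeR fit also called it lower without Ad-GFP replicate 1 (adjusted p = 0.0262) or replicate 4 (0.0423). The authors' deposited table gives it an FDR of 0.0848.

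N-cadherin, encoded by Cdh2, forms adherens junctions in mesenchymal and neural cells and in proximal tubules. Cdh2 had 526.4, 515.2, 515.9 and 538.0 CPM with Ad-GFP and 596.0, 600.8, 628.0 and 590.3 CPM with Ad-Cre. Every Ad-Cre library was above every Ad-GFP library. The level rose to 115.3% of Ad-GFP (95% interval 111.6% to 119.0%; log2 fold change 0.20 ± 0.022, SE, n = 4 per group; adjusted p = 4.573e-08).

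P-cadherin, encoded by Cdh3, is the neighbour of Cdh1 and is known from basal epithelial layers and placenta. Cdh3 had 191.7, 196.7, 194.3 and 193.4 CPM with Ad-GFP and 232.2, 222.5, 230.5 and 233.3 CPM with Ad-Cre. Its groups were well apart, and it rose to 118.3% of Ad-GFP (95% interval 114.3% to 122.5%; adjusted p = 1.022e-08). Of this adjacent pair, Cdh3 passed the test upward and the Cdh1 estimate lay below 0, and the difference between them was not tested.

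R-cadherin, encoded by Cdh4, takes part in retinal and kidney development. Cdh4 had 45.9, 47.6, 47.8 and 52.2 CPM with Ad-GFP and 40.4, 39.9, 44.4 and 43.7 CPM with Ad-Cre. The gap between the groups was narrow, from 44.4 to 45.9 CPM. Cdh4 fell to 87.1% of Ad-GFP (95% interval 81.4% to 93.2%; adjusted p = 0.001596).

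Both type II cadherins among the 9 rose, Cdh6 by the most of the members and Cdh11 by the least of the members that passed. K-cadherin, encoded by Cdh6, marks the proximal tubule lineage from early nephron stages. Cdh6 had 140.8, 133.9, 137.5 and 136.4 CPM with Ad-GFP and 173.7, 169.6, 179.3 and 171.5 CPM with Ad-Cre. No library came near the other group, and the rise to 126.5% of Ad-GFP (95% interval 121.7% to 131.4%; log2 fold change 0.34 ± 0.027, SE, n = 4 per group) had the smallest p of the members (adjusted p = 1.417e-10).

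Cdh11, which encodes OB-cadherin, had 175.1, 165.8, 175.4 and 178.3 CPM with Ad-GFP and 183.3, 185.02, 186.9 and 182.4 CPM with Ad-Cre. The groups did not overlap, but the gap between them, from 178.3 to 182.4 CPM, was smaller than the distance of the lowest Ad-GFP library, replicate 2, from the rest of its group. The rise to 106.2% of Ad-GFP (95% interval 102.3% to 110.3%; adjusted p = 0.01002) did not pass once Ad-GFP replicate 2 was left out (adjusted p = 0.0572), nor on log2(FPKM + 1) (limma adjusted p = 0.133).

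Cdh13, which encodes the GPI-anchored T-cadherin of vascular cells, fell by the most. It had 16.0, 12.8, 15.6 and 14.5 CPM with Ad-GFP and 11.6, 8.91, 11.9 and 10.3 CPM with Ad-Cre. The groups did not overlap, but these are low levels, from 208 to 280 counts per library, and the scatter within each group was wide. The fitted level was 72.2% of Ad-GFP (95% interval 63.3% to 82.3%; log2 fold change -0.47 ± 0.092, SE, n = 4 per group; adjusted p = 0.0001881). Endothelial markers moved with it: 9 of 10 tested fell, their median log2 fold change was -0.96, and the 11 listed summed to 100.5 to 107.0 CPM in Ad-GFP and 50.7 to 58.4 CPM in Ad-Cre, with none at 0 in all libraries. Of 6 mural markers 4 fell and none rose, with sums of 265.1 to 278.8 and 231.7 to 244.5 CPM. The part of these cells in the Cdh13 fall was not tested.

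Cdh16, the tubule-restricted Ksp-cadherin gene, had 270.6, 265.1, 274.8 and 283.4 CPM with Ad-GFP and 353.8, 320.8, 329.9 and 337.2 CPM with Ad-Cre. All Ad-Cre libraries lay above the Ad-GFP range, and the level rose to 122.6% of Ad-GFP (95% interval 117.9% to 127.5%; adjusted p = 3.047e-09). Markers of tubule segments moved in the same samples. Among proximal tubule markers 4 of the 5 tested rose and none was called lower. Over both groups the most abundant were Ggt1 (42.1 ± 2.0 to 63.3 ± 1.1 CPM, SD, n = 4) and the injury marker Havcr1. The other tested markers are named after their values were seen. Lrp2 was not called, at 39.5 and 36.6 CPM (Ad-GFP, Ad-Cre, edgeR adjusted p = 0.112). Aqp1 rose from 4.52 to 22.4 CPM and Cubn from 5.01 to 6.97 CPM. The proximal tubule list summed to 113.7 to 128.9 CPM in Ad-GFP and 161.5 to 185.5 CPM in Ad-Cre. Of 7 tested markers of the distal nephron or collecting duct, 2 passed upward and 2 downward, with sums of 102.8 to 111.9 and 124.9 to 136.5 CPM. The sodium channel gene Scnn1a rose to 125.2% of Ad-GFP. The other calls, named after their values were seen, were Slc12a3, which rose to 152.6%, and Slc12a1 and Calb1, which fell to 37.2% and 29.1%, from 1.44 CPM each. The mature segment genes Slc22a6, Aqp2 and Foxi1, named after their values were seen, had 0 counts in all 8 libraries. The part of tubule segments in the Cdh16, Cdh6 and Cdh2 rises was not tested.

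Cdh17, which encodes the LI-cadherin of intestinal epithelium, was the least abundant member, at 55 to 114 counts per library. It had 4.47, 5.42, 4.43 and 3.44 CPM with Ad-GFP and 4.70, 4.58, 4.85 and 5.16 CPM with Ad-Cre. All Ad-Cre libraries fell inside the Ad-GFP range. The fitted level was 108.2% of Ad-GFP, and its 95% interval of 89.5% to 130.8% covers changes as large as those of Cdh6 and Cdh16 (adjusted p = 0.527). Its log2 fold change of 0.11 became 0.23 without Ad-GFP replicate 2 and 0.014 without Ad-GFP replicate 4, and was not called in either fit.

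**Figure D2:**
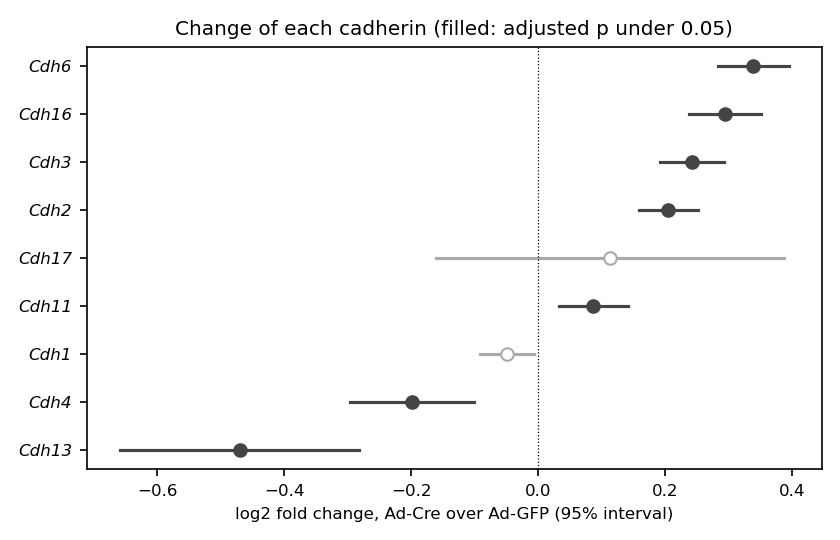
Log2 fold change of each cadherin, Ad-Cre over Ad-GFP, from the edgeR fit (points) with its 95% interval (lines), ordered by size. Filled points passed an adjusted p under 0.05. Cdh13 and Cdh17, the genes with the fewest counts, have the widest intervals, and the Cdh1 point at -0.05 is open.

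The genes lie on 5 chromosomes of GRCm38 (GENCODE M21). Cdh3 (chromosome 8, 106510891 to 106557297, plus strand) and Cdh1 (chromosome 8, 106603351 to 106670246, plus strand) are neighbours, 46053 bases apart. Chromosome 8 also holds Cdh11 (102632095 to 102785642, minus), Cdh16 (104601911 to 104624396, minus) and Cdh13 (118283733 to 119324921, plus), which spans 1041189 bases. Cdh2 is on chromosome 18 (16588877 to 16809246, minus), Cdh4 on chromosome 2 (179442431 to 179899373, plus), Cdh6 on chromosome 15 (13028701 to 13173675, minus) and Cdh17 on chromosome 4 (11758147 to 11817895, plus). No exon of the 9 genes overlaps an exon of another annotated gene, whereas the exons of Suv39h1 overlap the antisense gene Gm14820 over 767 bases, where reads of the 2 genes cannot be told apart without strand. No 50-base stretch of a Cdh1, Cdh2, Cdh3, Cdh4 or Cdh17 transcript occurs in a transcript of another gene, and the shared fraction was 2.07% for Cdh11 and at most 0.238% for Cdh6, Cdh13 and Cdh16, counting both strands.

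Levels of different genes were compared per length, on the authors' FPKM. In Ad-GFP the order was Cdh1 (160.3 ± 4.3), Cdh2 (127.4 ± 2.4), Cdh16 (108.8 ± 7.6), Cdh3 (44.6 ± 0.54), Cdh11 (31.0 ± 0.94), Cdh6 (16.9 ± 0.32), Cdh4 (7.63 ± 0.43), Cdh13 (3.92 ± 0.38) and Cdh17 (1.29 ± 0.24 FPKM; SD, n = 4). The Ad-GFP ranges of neighbours in that order did not overlap. Cdh1 had more FPKM than all but 2.50% of tested genes, and Cdh17 stood below 85.6% of them. The order was the same in Ad-Cre, but its top 3 drew together: Cdh1 was at 152.1 ± 1.5, Cdh2 at 144.6 ± 4.2 and Cdh16 at 139.0 ± 7.7 FPKM. In Ad-Cre the Cdh1 and Cdh2 ranges overlapped (150.1 to 153.4 against 140.9 to 150.4), although Cdh1 was above Cdh2 within each of the 4 libraries. Cdh2 and Cdh16 could not be ordered there by FPKM, since Cdh2 was the higher in 2 of 4 libraries. The scale of the Cdh16 FPKM was not constant, as described below.

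**Figure D3:**
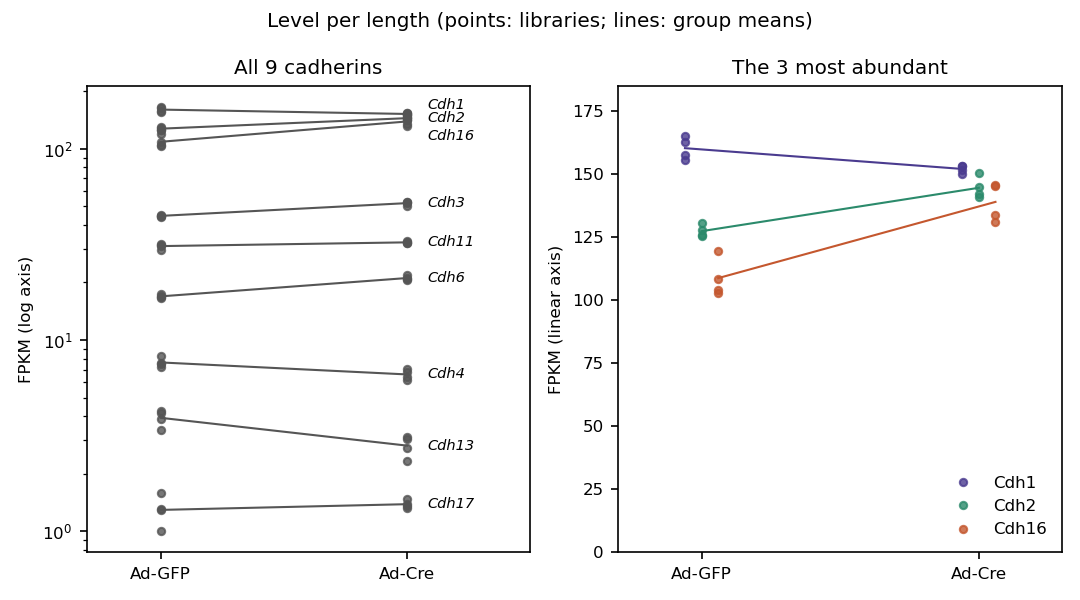
FPKM of the cadherins in each library (points) and the group means (lines), for all 9 genes on a log axis at left and for Cdh1, Cdh2 and Cdh16 on a linear axis from 0 at right. The 3 genes span 108.8 to 160.3 FPKM as Ad-GFP means and 139.0 to 152.1 FPKM as Ad-Cre means.

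The ratio of Cdh2 to Cdh1, the pair used to describe a cadherin switch, was 0.821, 0.760, 0.773 and 0.828 by FPKM with Ad-GFP and 0.936, 0.967, 0.982 and 0.918 with Ad-Cre. It was higher in every Ad-Cre library than in any Ad-GFP library, by 0.26 on the log2 scale, and below 1 in all 8. The Cdh16 to Cdh1 ratio went from 0.680 ± 0.061 to 0.914 ± 0.050 and the Cdh3 to Cdh1 ratio from 0.278 ± 0.0044 to 0.342 ± 0.0046 (SD, n = 4). Because the 9 genes were chosen with earlier results known, these ratios are given without a test. The FPKM of the 9 genes summed to 497.2 to 514.0 in Ad-GFP and 542.7 to 556.5 in Ad-Cre, and the Cdh1 share of that sum was 31.96% ± 1.2 and 27.55% ± 0.19 (SD, n = 4). Cdh1, Cdh2 and Cdh16 together made 78.6% to 79.3% of it in every library.

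The scale of the Cdh16 FPKM varied between libraries more than that of the other members. The gene length implied by its count and FPKM ran from 2301 to 2657 bases over the 8 libraries, a coefficient of variation of 4.86%, while that of the other 8 cadherins was at most 0.838%. It was 2389 to 2657 bases in Ad-GFP and 2301 to 2500 bases in Ad-Cre. A shorter implied length gives more FPKM for the same count. The Cdh16 level and its ratio to Cdh1 given above include this difference in scale. GENCODE lists 14 Cdh16 transcripts, 12 of them protein-coding, against 1 to 8 transcripts for each of the others. Its log2 fold change was 0.29 on counts and 0.35 by limma on log2(FPKM + 1), both past the threshold.

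Catenins carry the classical cadherins' link to actin, and their changes went both ways. Of the 20 catenin and junction plaque genes tested 5 rose, 6 fell and 9 were not called, with a median log2 fold change of 0.0060 (0.0041 over all genes). The share called was 55%, beside 40.3% of all tested genes. β-catenin (Ctnnb1), which binds the distal part of the cadherin tail, fell to 95.5% of Ad-GFP, from 832.1 ± 14.8 to 794.9 ± 14.1 CPM (SD, n = 4; adjusted p = 0.00994). Its lowest Ad-GFP library (810.9 CPM) was just below its highest Ad-Cre library (811.7 CPM), so the groups overlapped. α-catenin (Ctnna1) fell to 95.6% and plakoglobin (Jup), the β-catenin relative shared with desmosomes, to 93.4%. The catenin gene Ctnnd2, named after its values were seen, fell to 75.9%, from 7.56 to 5.72 CPM. Its groups overlapped (edgeR adjusted p = 0.00798). In contrast p120-catenin (Ctnnd1), which binds the juxtamembrane tail and holds cadherins at the surface, rose from 621.8 ± 10.8 to 690.2 ± 3.7 CPM (SD, n = 4), or 111.0% of the Ad-GFP level (adjusted p = 7.261e-07). The other members of smallest p were the α-catenin relative Ctnnal1 (120.6%), the nectin adaptor afadin (Afdn, 109.4%; on log2(FPKM + 1), limma adjusted p = 0.353) and the apical constriction gene Shroom3, which fell to 88.0%.

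Genes that cleave or internalise cadherins were mixed, 6 rising and 3 falling of 17 tested (52.9% called, beside 40.3% of all tested genes), and the median log2 fold change was 0.023. Adam10, the protease that sheds E- and N-cadherin ectodomains, rose to 110.9% of Ad-GFP (168.7 ± 5.0 to 187.1 ± 2.5 CPM, SD, n = 4; adjusted p = 5.384e-05). The endocytic adaptor gene Dab2 rose to 112.2% and the proprotein convertase gene Pcsk6 to 128.9% (on log2(FPKM + 1), limma adjusted p = 0.0753). Mgat5, whose product branches N-glycans on cadherins, fell to 88.9%.

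Repressors of E-cadherin were lower or not called. Of the 11 tested 5 fell and none rose, and the median log2 fold change was -0.30 (all genes, 0.0041). That is 45.5% called, beside 40.3% of all tested genes called in either direction and 20.5% called lower. The basic helix-loop-helix factor gene Twist1 fell from 5.79, 5.03, 4.96 and 6.62 CPM in Ad-GFP to 2.57, 2.48, 2.55 and 2.13 CPM in Ad-Cre, 43.5% of Ad-GFP (adjusted p = 2.091e-07). Zeb1, which binds paired E-boxes in the Cdh1 promoter, fell from 16.0 ± 1.1 to 10.0 ± 0.57 CPM (SD, n = 4), or 62.7% of the Ad-GFP level (adjusted p = 9.888e-08). Zeb2 fell to 90.9% and Tcf4 to 90.8%, with groups that overlapped for Tcf4. The Zeb2 call was lost without Ad-GFP replicate 2 or 3 or Ad-Cre replicate 3 or 4 (edgeR adjusted p 0.0505 to 0.0909) and in DESeq2 (0.0858), the Tcf4 call on log2(FPKM + 1) (limma adjusted p = 0.0761). The SNAIL family was barely detected and was not called, with group means of 0.731 and 0.404 CPM for Snai1 (Ad-GFP, Ad-Cre; adjusted p = 0.0687) and 3.03 and 2.33 CPM for Snai2 (adjusted p = 0.115). Snai1 passed without Ad-GFP replicate 2 or Ad-Cre replicate 2 (adjusted p = 0.0466 and 0.0379), Snai2 without Ad-GFP replicate 2 (0.0403). In these same libraries the Cdh1 estimate was 96.7% of Ad-GFP. Fibroblast markers fell beside these genes, 6 of 9 tested with 0 rising, among them Vim to 66.3% and Col1a1 to 63.7%, and so did macrophage and leukocyte markers, 9 of 11 (sums of 278.0 to 318.4 and 240.5 to 252.8 CPM). Whether the repressor transcripts came from those cells was not tested.

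Genes listed as epithelial activators, transcription factors and splicing regulators, moved both ways. Of 15 epithelial activators tested 7 passed upward and 3 downward, and their median log2 fold change was 0.11. The kidney lineage factors Pax2 and Pax8 rose to 127.8% and 111.6%, and the epithelial factors Grhl2 and Ehf to 115.8% and 117.3%. The rises of Grhl2 and Ehf did not pass on log2(FPKM + 1) (limma adjusted p = 0.0819 and 0.0938). The 3 that fell, named after their values were seen, were the splicing regulator gene Esrp1 (89.8%) and the factors Klf4 (86.1%) and Foxa1 (82.9%, groups overlapping). Of the 15 general epithelial markers 5 rose and 7 fell, among them Krt8, which fell to 77.6%, and Epcam, named after its values were seen, which rose to 118.0%.

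**Figure D4:**
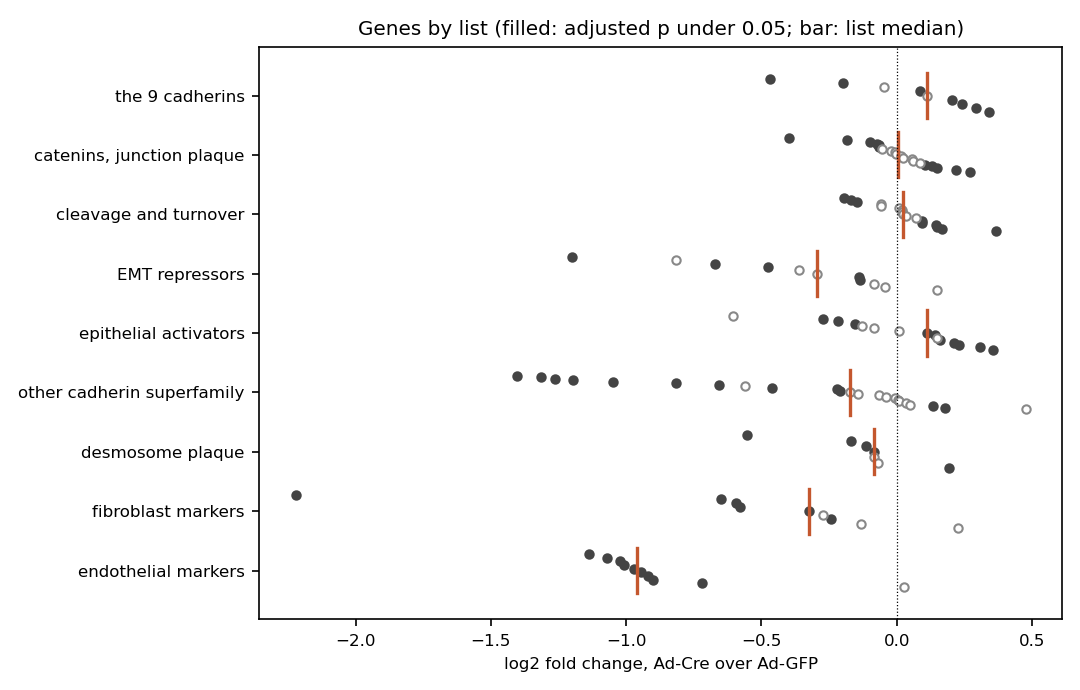
Log2 fold change, Ad-Cre over Ad-GFP, of the tested genes of each list (points, filled where the adjusted p was under 0.05), with the list median as a bar. The repressor list has its median at -0.30 (Twist2, not called) and the 9 cadherins theirs at 0.11 (Cdh17, not called). The endothelial markers have theirs near -0.96.

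Of 47 other cadherin superfamily genes 23 were tested: 2 rose, 10 fell and 11 were not called, and the median log2 fold change was -0.17. Cdh7, Cdh8, Cdh9 and Cdh12 had 0 counts in all 8 libraries. VE-cadherin (Cdh5), the classical cadherin of endothelium, fell from 39.9, 37.5, 39.0 and 41.1 CPM to 17.3, 19.1, 18.3 and 21.1 CPM, 48.3% of Ad-GFP (adjusted p = 8.578e-14). The most abundant endothelial markers, Pecam1 and Emcn, were at 49.7% and 51.9%. Of the others, named after their values were seen, Eng was at 60.6% and Vwf, not called, at 101.8%. The part of endothelial cells in the Cdh5 fall was not tested. The protocadherin gene Pcdh7 fell to 63.4%, the planar polarity cadherin gene Fat4 to 56.8% and the desmosomal cadherin gene Dsc2 to 72.6%. Desmosome plaque genes had 1 rise and 4 falls among 7: periplakin (Ppl) fell to 89.0%, desmoplakin (Dsp) to 94.3% (groups overlapping) and plakophilin 1 (Pkp1) to 68.2%, while envoplakin (Evpl) rose to 114.3%. The Evpl call was lost without Ad-GFP replicate 2, Ad-Cre replicate 2 or Ad-Cre replicate 4 (edgeR adjusted p 0.0674 to 0.0729), in DESeq2 (0.0615) and on log2(FPKM + 1) (limma, 0.157).

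The deposited annotation gives all 9 cadherins the terms homophilic cell adhesion and calcium ion binding, 8 the catenin complex, and 4 of them, the type I genes, the KEGG pathway of cell adhesion molecules. Genes with the most similar profile were found by the root mean square difference between log2 CPM values over the 8 libraries, each centred on its gene's mean, among 10691 other genes of at least 5 CPM. For Cdh16 these were Kifc3 (0.011), Clcc1 and Lad1, for Cdh6 Twsg1 (0.018), Vps13c and Ccdc50, for Cdh3 Bicc1 (0.013), Stk24 and Tapt1, and for Cdh2 Mrpl24 (0.011), Spin1 and Rbm47. For Cdh11 they were Odf2l (0.012), Specc1l and Abcf1, and for Cdh4 Gss (0.033), Itgb8 and Lmf2. Cdh13 was matched less closely, by Pla1a (0.085), Pgf and Lig1. The number of genes within 0.05 was 1049 for Cdh11, 394 for Cdh2, 343 for Cdh3, 109 for Cdh16, 92 for Cdh6, 22 for Cdh4 and 0 for Cdh13.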

How the data were processed

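The authors deposited whole-number read counts per gene for each library, per the file headers, and FPKM values of the same libraries, with group mean FPKM, a log2 fold change and p-values with an FDR from a test that the file headers do not name. Its log2 fold change was checked to be that of the mean FPKM the authors deposited. GRCm38 and mm10 are named as builds, per the submitters' processing notes. Aligner, read counter and strand setting were not given in the sources used here.

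With edgeR 4.0.16 (R 4.3.3) the deposited counts of the whole table were fitted: filterByExpr kept 13337 genes, TMM factors ran from 0.992 to 1.01, and the groups were compared by a two-sided quasi-likelihood F-test, with Benjamini-Hochberg adjustment over all tested genes and a threshold of 0.05. The standard error is the absolute log2 fold change over the square root of F. CPM are relative to TMM-scaled totals. Single values were also tested by exact permutation of the 8 libraries (70 splits, smallest two-sided p 0.0286). Replicates of a group differed by more than sampling noise (chi-square per degree of freedom 1.83 to 3.35), and principal component 1, with 62.9% of the variance, separated the groups. Alternatives used limma 3.58.1 and DESeq2 1.42.0. The fit was tested on simulated data.

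The members, gene lists and rules were chosen with earlier results of these data known. Named genes are the 9 cadherins, 14 genes always named (Suv39h1, Cdh5, catenins, repressors and activators), up to 4 called genes of smallest p per gene list, the 2 most abundant genes per cell type list, of which some (podocyte and parietal Cldn1 and Podxl, mural Mcam and Notch3, distal nephron Scnn1g, leukocyte Lyz2 and Csf1r) are given by their list's counts or here by name only, and the 3 closest profiles per called cadherin. Podocyte and parietal markers had 1 rise and 3 falls of 6 tested. Some genes that this rule names are not reported here. Protein sequences were not used here. Of the 9 cadherins, 1 had a promoter in the RefSeq table.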

Additional observations from a re-analysis of the deposited data

Results flagged for a closer look

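In each group of 4 libraries, the gap between an extreme library and its nearest neighbour was divided by the group's range and set against Dixon's 95% critical value. Of 170 such groups (members, named genes and ratios) 5 exceeded that value, and chance alone passes about 1 in 20. The FPKM of the 9 cadherins summed to 514.0 in Ad-GFP replicate 4 against 497.2 to 498.7 in the other Ad-GFP libraries (0.915 of the range). In that library Cdh16 had its highest Ad-GFP value, 119.5 FPKM, and its shortest implied length of that group, 2389 bases against 2505 to 2657. By CPM it was at 283.4 there and at 265.1 to 274.8 in the other Ad-GFP libraries. The share of Cdh1, Cdh2 and Cdh16 in the sum was 78.6% in Ad-Cre replicate 3 against 79.0% to 79.1% in the other Ad-Cre libraries (0.872). Ctnna1 was at 934.4 CPM in Ad-Cre replicate 2 against 925.4 to 926.6 CPM (0.867). Ad-GFP replicate 1 was low for the mural marker Mcam, at 143.6 CPM against 150.3 to 151.1 CPM (0.888), and for Bicc1, the closest profile to Cdh3, at 851.2 CPM against 880.5 to 884.1 CPM (0.892). None of the 9 cadherins was itself beyond the limit in either group by CPM.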

How the results depend on the processing

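Each cadherin kept its direction under all alternatives that gave it a value; the filter of at least 5 CPM left out Cdh17. Cdh1, not called in the edgeR fit, was called lower with upper-quartile factors (-0.0691), the filter of at least 5 CPM (-0.0645), limma-voom (-0.0488) and limma on log2(FPKM + 1) (-0.0753) or log2(FPKM + 0.1) (-0.0757), and leaving out single libraries gave -0.0619 to -0.0372, called without Ad-GFP replicate 1 or 4. Its adjusted p ran from 0.00832 to 0.191 over the alternatives. Cdh11 was not called by limma on log2(FPKM + 1) (0.0636) or log2(FPKM + 0.1) (0.0654), nor without Ad-GFP replicate 2, and ranged from 0.0653 to 0.0998 without single libraries. The FPKM fits applied no TMM factors. On log2(FPKM + 0.1) every member but Cdh16 had a lower log2 fold change than in the edgeR fit. It was 0.2212 for Cdh3, 0.3168 for Cdh6 and 0.0654 for Cdh11, against 0.2423, 0.3391 and 0.0869 in edgeR. The count of called members was 4 or 5 higher and 2 or 3 lower throughout. Over all genes 5370 were called, against 3530 and 3520 with limma on log2(FPKM + 1) and log2(FPKM + 0.1) (the cause was not tested). Those 2 fits took genes with a mean of at least 1 FPKM, a different set from that of the main fit. The count was 4353 with DESeq2, 4584 with at least 5 CPM, 5498 with no filter and 4816 to 5084 without single libraries. The Cdh2 to Cdh1 change was 0.2530 by counts and 0.2364 to 0.2778 without single libraries.

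Deviations from the group means correlated between same-numbered libraries at 0.166, 0.140, 0.092 and 0.026. For Ad-GFP replicates 1, 2 and 3 the same-numbered Ad-Cre library was the best match. Ad-GFP replicate 4 correlated best with Ad-Cre replicate 1 (0.079). The labels state no pairing, so the numbers were not taken as pairs in the main fit. With the replicate number as a block 5390 genes were called, and Cdh1 (adjusted p = 0.0610) and Cdh11 (0.0106) kept their side of the threshold, as did the other members. Of 69 other named genes 49 kept direction and call throughout, 15 lost the call in some alternative and 4 gained it. Cldn1, not called, changed sign with upper-quartile factors (-0.0105), at least 5 CPM (-0.0061), log2(FPKM + 1) (-0.0108), log2(FPKM + 0.1) (-0.0109), thinning (-0.0059) and without single libraries (-0.0183 to 0.0300). Thinning every library to the smallest total moved Cdh17, the member with the fewest counts, from 0.1133 to 0.0486.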
